A study of Vitis vinifera and Vitis x champinii x Vitis riparia and Vitis cinerea var. helleri x Vitis rupestris with 22 samples.

Results

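The response examined here is the common salt effect in grapevine roots: the mean salt effect over Cabernet Sauvignon, 140 Ruggeri and K51-40, with each variety given equal weight. It was taken from all 11 salt arrays set against all 11 control arrays, so 22 of the 22 arrays of the series are members. Every array measured the root RNA of 1 variety under 1 treatment on a single-colour oligonucleotide microarray carrying 52478 probes for 26241 grapevine genes. The study placed the varieties side by side to look for genes that govern how much chloride reaches the shoot, and the comparison used here asks which transcripts moved with salt on average over them.

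Salt-treated plants received 50 mM Cl- as a mixture of sodium, calcium and magnesium chloride in nutrient solution for 4 days, and control plants were kept in nutrient solution without the added salt for the same time. The salt groups comprised 4 arrays of Cabernet Sauvignon (Vitis vinifera), 3 of 140 Ruggeri (Vitis berlandieri crossed with Vitis rupestris) and 4 of K51-40 (Vitis champinii crossed with Vitis riparia), and the control groups held the same numbers. All plants were rooted leaves, single leaves that had formed roots at the petiole, and each array represented whole roots pooled from 4 of them, so that p-values measure the spread between such pools. The roots of such plants include no stem or bud, and they are a hydroponic model rather than the roots of a grafted vine.

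Salt reaches a root as water deficit and as an excess of Na+ and Cl-. Roots are known to respond by taking up or releasing ions through channels and carriers, by moving water through aquaporins, by making compatible sugars such as galactinol derivatives, and by raising chaperones and detoxifying enzymes, in part under the control of abscisic acid (ABA). Many of these genes are also gated by the circadian clock, a loop of morning-expressed MYB repressors, day-expressed pseudo-response regulators and evening-expressed partners that runs in roots as well as shoots.

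A probe was called when limma's moderated test gave a Benjamini-Hochberg adjusted p of at most 0.05 over all 52478 probes together with a log2 fold change of at least 0.5 in either direction, and 1 called probe sufficed for its gene. By this rule 173 genes were higher under salt and 65 were lower, which is 0.659% and 0.248% of the genes tested, or 0.907% in either direction. At probe level the counts were 268 higher and 102 lower (0.511% and 0.194% of probes), with a median log2 fold change of 0.64 among the higher probes and -0.62 among the lower. The response was modest in size, since 26 of the higher probes and 3 of the lower ones reached 1 on the log2 scale. The adjusted p alone was passed by 1925 probes (3.67%). The median over all probes was -0.00069, with a median standard error of 0.07.

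Most of the called probes moved the same way in each variety. The sign was shared by all 3 varieties for 250 of the 268 higher probes and 96 of the 102 lower ones. A call on the mean of these same 3 differences favours a shared sign without requiring it, and the share over all probes was not counted. The lowest salt array lay above the highest control array within every variety for 77 of the higher probes, and the reverse held for 15 of the lower ones, against 0.244% and 0.0953% of all probes. Tested within 1 variety at a time with the same thresholds, 43 of the higher and 25 of the lower probes passed in no variety, and 8 of the higher and 0 of the lower probes passed in all 3. In genes, the counts were 190 higher and 98 lower in Cabernet Sauvignon (0.724% and 0.373%), 12 and 1 in 140 Ruggeri (0.0457% and 0.00381%), and 342 and 424 in K51-40 (1.3% and 1.62%). In Cabernet Sauvignon 285 probes were higher and 134 lower (0.543% and 0.255%), in 140 Ruggeri 17 were higher and 1 lower (0.0324% and 0.00191%), and in K51-40 495 were higher and 607 lower (0.943% and 1.16%). The median difference over the probes called higher was 0.75 in Cabernet Sauvignon, 0.60 in 140 Ruggeri and 0.65 in K51-40 on the log2 scale, and 140 Ruggeri had 3 arrays a group where the others had 4.

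Genes were generally represented by a pair of probes. Both probes were called for 95 of the 173 higher genes and 37 of the 65 lower ones, and both had the same sign for 165 of the higher and all 65 of the lower genes. An annotation was at hand for 117 of the higher and 43 of the lower genes. Annotations came from tables of the study, which cover mainly genes that it selected on these same arrays. Of the 2743 annotated genes 5.83% were called, and the lists that follow should be read against that share rather than against all genes. The exception is the anion transporter list, which was set by the array design. Even that share is low for lists drawn largely from the study's tables of genes that responded to salt. Those tables held 1137 of the annotated genes, but 131 of the 173 higher and 52 of the 65 lower genes.

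**Figure D1:**
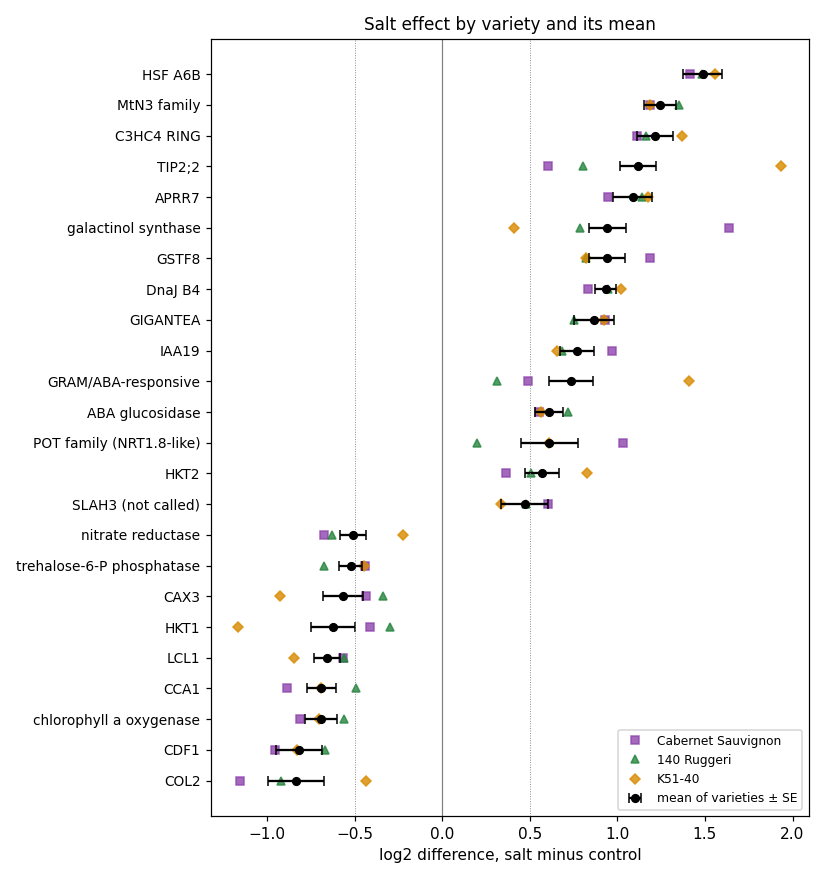
Log2 difference between salt and control (horizontal axis) for 24 genes; squares, triangles and diamonds are Cabernet Sauvignon, 140 Ruggeri and K51-40, and black points are the mean over varieties with its limma standard error. Dotted lines mark 0.5 in either direction. HSF A6B (1.49) and DnaJ B4 (0.93) have the 3 varieties close together, whereas TIP2;2 and the galactinol synthase spread from 0.61 to 1.94 and from 0.41 to 1.64.

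All 5 genes of the circadian clock list were called, 3 higher and 2 lower, and all 5 also stand in tables that the study selected on these samples. The pseudo-response regulator APRR7 (GSVIVT01032644001), a daytime repressor in the clock of Arabidopsis, was higher under salt. Its normalised log2 intensity was 9.75, 10.27, 9.77 and 10.07 on the salt arrays of Cabernet Sauvignon, against 8.66, 9.02, 9.12 and 9.27 on the control arrays. In 140 Ruggeri it was 10.35, 10.31 and 10.07 under salt, against 8.95, 8.91 and 9.44 in controls. In K51-40 it was 10.54, 10.41, 10.69 and 10.44 under salt, against 9.30, 9.59, 9.76 and 8.73 in controls. Salt and control arrays did not overlap in any variety, and the common log2 fold change was 1.09 ± 0.11 (SE; adjusted p = 6.7e-06, limma), with 1.17 from the second probe.

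A second gene annotated as APRR7 (GSVIVT01025088001), whose closest Arabidopsis gene is AT5G60100, the regulator APRR3, was higher by 0.94 ± 0.13 on the log2 scale (adjusted p = 0.00016). GIGANTEA (GSVIVT01001405001), an evening protein that links the clock to light signalling, was higher by 0.87 ± 0.11 (adjusted p = 9.3e-05) and did not overlap between treatments in any variety. On its 11 salt arrays GIGANTEA stayed within narrow limits in each variety, with SDs of 0.06, 0.04 and 0.14 under salt, against 0.35, 0.31 and 0.47 in controls, for Cabernet Sauvignon (n = 4), 140 Ruggeri (n = 3) and K51-40 (n = 4).

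The morning genes went the other way. The MYB factor annotated as CCA1 (GSVIVT01027456001), which has the LHY gene AT1G01060 as its Arabidopsis match, gave 7.57, 7.28, 6.95 and 7.15 under salt in Cabernet Sauvignon, against 8.06, 8.23, 8.21 and 7.99 in controls. In 140 Ruggeri it gave 7.22, 7.25 and 7.28 under salt, against 7.61, 7.91 and 7.71 in controls, and in K51-40 7.54, 7.23, 7.20 and 7.43 under salt, against 8.31, 8.13, 7.59 and 8.14 in controls. Again no salt array reached a control array of its variety, and the common log2 fold change was -0.69 ± 0.08 (adjusted p = 4.2e-05). LCL1 (GSVIVT01025544001), a related MYB factor, was lower by the same measure at -0.66 ± 0.08 (adjusted p = 2.4e-05), also without overlap in any variety.

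Further called genes whose Arabidopsis counterparts are tied to the clock or to light signalling moved in both directions, and they formed no list and were given no test as a group. Cycling DOF factors are repressors that act in the flowering pathway and are removed by GIGANTEA and its partner. The genes annotated as factor 1 (GSVIVT01011433001, matched to AT5G39660) and factor 2 (GSVIVT01019969001, matched to AT5G62430) had log2 fold changes of -0.82 ± 0.13 and -0.77 ± 0.14. Their numbers are those of the annotation, not of the Arabidopsis match. COL2 (GSVIVT01036499001), of the CONSTANS family, had -0.84 ± 0.16, and ACI112 (GSVIVT01036604001), whose Arabidopsis match AT5G06980 is the clock coactivator LNK4, had -0.87 ± 0.11, although its second probe gave -0.40 and was not called. Their adjusted p values were 0.00075, 0.0019, 0.0036 and 8.3e-05. The next genes were chosen after their values were seen. The homologues of LNK2 (GSVIVT01000669001, 1.19 ± 0.17) and LNK1 (GSVIVT01003081001, 0.63 ± 0.11) and ADAGIO 1 (GSVIVT01011652001, 0.71 ± 0.11), an F-box protein of the FKF1 family and partner of GIGANTEA, were higher, so that the LNK homologues did not share a direction. The B-box zinc finger genes GSVIVT01000440001 (-0.63 ± 0.14) and GSVIVT01010794001 (-0.62 ± 0.10) and SPA3 (GSVIVT01020559001, -0.51 ± 0.07), a light-signalling repressor, were lower. The SPA3 call ended without any 1 of 4 arrays, with values between -0.498 and -0.478, and the other 5 calls held without each array in turn.

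The clock genes kept their direction within each scan date. On the 15 arrays of the first date APRR7 gave 1.08, GIGANTEA 0.87, CCA1 -0.69 and LCL1 -0.65, and on the 7 arrays of the second date, which held no 140 Ruggeri, they gave 0.98, 0.84, -0.74 and -0.72 with no adjusted p at or under 0.05. The second APRR7-annotated gene (GSVIVT01025088001) gave 0.956 on the first date and 0.754 on the second. Of the clock-linked genes, the LNK1 homologue (GSVIVT01003081001) gave 0.690 and 0.373 on the first and second dates and ADAGIO 1 (GSVIVT01011652001) 0.851 and 0.564. The sources used here do not give the hour of harvest of each group. Adjusted p values for a difference of the salt effect between varieties were 0.93 for APRR7, 0.96 for GIGANTEA, 0.71 for CCA1 and 0.72 for LCL1.

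**Figure D2:**
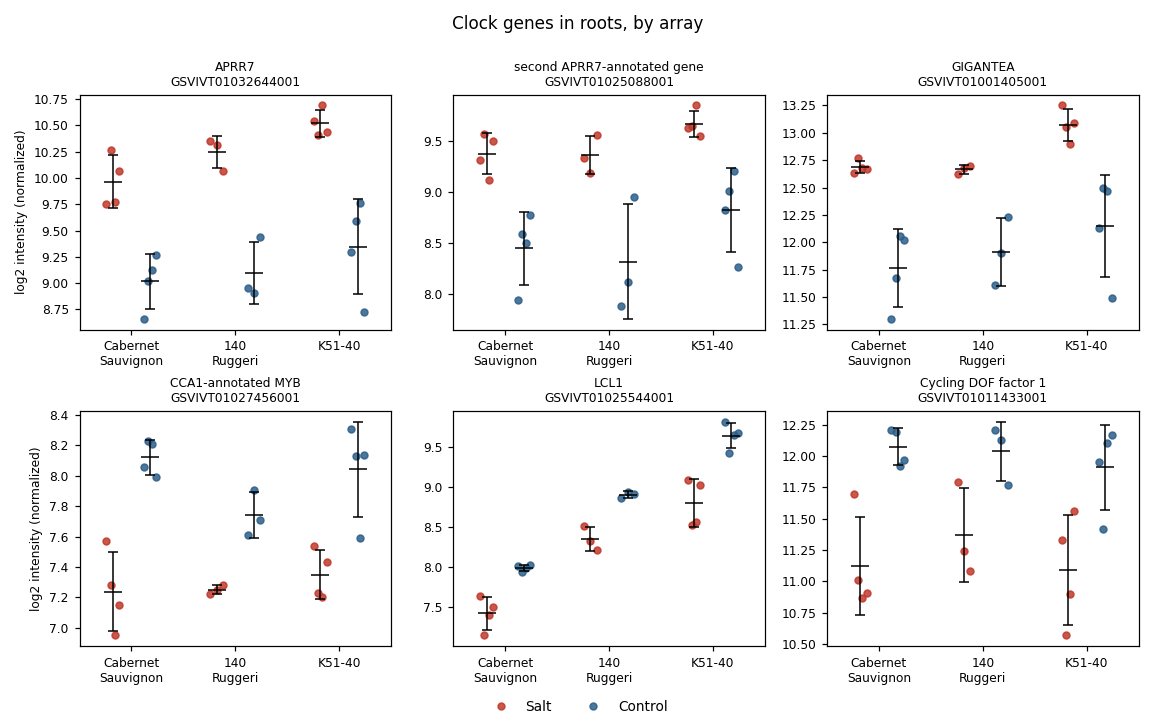
Normalised log2 intensity (vertical axis) of 6 clock-related genes on every array, salt (red) left of control (blue) in each variety, with mean and SD bars. APRR7, the second APRR7-annotated gene and GIGANTEA are higher, and CCA1 and LCL1 lower, on all salt arrays than on the controls of the same variety, and Cycling DOF factor 1 (-0.82) overlaps between treatments in some varieties.

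Heat shock proteins and chaperones were the largest group of called genes among the lists. Of 47 members 12 were higher, 0 were lower and 35 were not called, while 23 passed the adjusted p alone, against 499 of the 2743 annotated genes. The median log2 fold change over the 94 probes of the list was 0.25, against -0.00069 over all probes, and 31 of the 47 were in tables that the study selected on these samples. These proteins refold or hold damaged proteins, and the heat stress transcription factors (HSFs) switch them on.

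The strongest member was HSF A6B (GSVIVT01035385001), whose Arabidopsis match AT2G26150 is HSFA2. It measured 8.54, 9.12, 9.11 and 8.91 under salt in Cabernet Sauvignon, against 7.48, 7.42, 7.35 and 7.77 in controls. In 140 Ruggeri the values were 8.83, 9.20 and 8.13 under salt, against 7.40, 6.97 and 7.34 in controls, and in K51-40 9.37, 8.85, 8.88 and 9.0 under salt, against 7.47, 7.62, 7.41 and 7.34 in controls. The lowest salt array of each variety lay above its highest control, and the variety differences of 1.42, 1.49 and 1.56 gave a common value of 1.49 ± 0.11 (adjusted p = 1.1e-07). This is 2.80-fold, and among the annotated genes with one sign in the 3 varieties only a germin-like gene, at 1.86 (GSVIVT01031080001), had a larger common increase.

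The smallest adjusted p of all named genes belonged to DnaJ B4 (GSVIVT01021112001), an HSP40 co-chaperone that delivers clients to HSP70. It averaged 9.21 ± 0.12 under salt and 8.37 ± 0.04 in controls of Cabernet Sauvignon (SD, n = 4 each). In 140 Ruggeri it averaged 9.11 ± 0.05 under salt and 8.16 ± 0.13 in controls (n = 3 each), and in K51-40 9.62 ± 0.23 under salt and 8.60 ± 0.07 in controls (n = 4 each). The common log2 fold change was 0.93 ± 0.06 (adjusted p = 1.7e-08, limma). HSP70 (GSVIVT01024994001) was higher by 0.72 ± 0.08 and the disaggregase HSP101 (GSVIVT01007880001) by 0.62 ± 0.10. A second gene annotated as HSF A6B (GSVIVT01003118001), matched to the Arabidopsis gene AT3G51910, was higher by 0.66 ± 0.07. The small heat shock proteins GSVIVT01016428001 and GSVIVT01002382001 were higher by 0.61 ± 0.11 and 0.62 ± 0.15. HSP101 and the small heat shock proteins lie outside the naming rule and were chosen after their values were seen.

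A family of sugar carriers supplied further large increases. Genes of the nodulin MtN3 family encode SWEET proteins, which let sugars leave cells. GSVIVT01019601001 read 7.66, 7.71, 7.61 and 7.89 under salt in Cabernet Sauvignon, against 6.83, 6.34, 6.56 and 6.38 in controls, and 7.38, 7.02, 6.61 and 7.16 under salt in K51-40, against 5.98, 5.93, 5.93 and 5.58 in controls. In 140 Ruggeri it read 6.93, 6.68 and 6.39 under salt, whereas its 3 control arrays were not well above background, so that salt was at least 2.53-fold higher there. Its common log2 fold change was 1.24 ± 0.09 (adjusted p = 1.1e-07). A bound of this kind sets the mean of the bright group against, on each dim array, the higher of the probe's own value and the lowest value of any probe well above background. The neighbours in the gene numbering GSVIVT01008597001 and GSVIVT01008595001 were 2.63-fold higher (adjusted p = 0.00058) and higher by 0.99 ± 0.16 on the log2 scale (adjusted p = 0.00071). The value of GSVIVT01008595001 came from 0.51, 0.54 and 1.92 in the varieties, with salt and control arrays apart in 1 of them, and its second probe gave 0.59 and was not called (adjusted p = 0.075). In GSVIVT01008597001 the arrays of Cabernet Sauvignon overlapped, with 8.58, 9.45, 7.71 and 9.11 under salt, against 6.71, 6.85, 7.80 and 7.77 in controls.

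Among the 17 genes of osmolyte and sugar metabolism 3 were higher, all of them galactinol synthases, which make the donor for raffinose-family sugars, and 1 was lower. The median over the probes of the list was -0.03, and 9 of the 17 were in the study's tables. GSVIVT01031274001, GSVIVT01031278001 and GSVIVT01031285001 rose by 0.94 ± 0.11, 0.80 ± 0.10 and 0.64 ± 0.07 on the log2 scale (adjusted p = 1.8e-05, 7.8e-05 and 9.4e-06). These are members of one multigene family with neighbouring numbers, and whether the probes separate their transcripts was not tested. Each had its largest difference in Cabernet Sauvignon (1.64, 1.32 and 1.38) and its smallest in K51-40 (0.41, 0.38 and 0.16), and the difference between varieties passed the test for the first (adjusted p = 0.047) and the third (adjusted p = 0.0014). The trehalose-6-phosphate phosphatase GSVIVT01004775001 fell by 0.52 ± 0.07 on the log2 scale, without overlap in any variety, but its call ended without any 1 of 4 arrays (-0.497 to -0.492).

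Of 26 glutathione transferases and glutaredoxins, which conjugate or reduce oxidised compounds, 4 were higher and 1 was lower, and 15 of the 26 stand in the study's tables. GSTF8 (GSVIVT01027961001) averaged 14.19 ± 0.30 under salt and 13.01 ± 0.41 in controls of Cabernet Sauvignon (SD, n = 4 each). It averaged 13.20 ± 0.17 under salt and 12.38 ± 0.08 in controls of 140 Ruggeri (n = 3 each), and 14.95 ± 0.12 under salt and 14.13 ± 0.25 in controls of K51-40 (n = 4 each). No salt array of a variety was as low as a control, and the common value was 0.94 ± 0.10 (adjusted p = 1.4e-05). GSTU22 (GSVIVT01038031001) was higher by 0.85 ± 0.11, and GSTU25 (GSVIVT01014953001) by 0.70 ± 0.16 although its treatments overlapped in all 3 varieties and its second probe gave 0.31 (adjusted p = 0.17). The glutaredoxin GSVIVT01017786001 was lower by the common measure at -0.80 ± 0.19, from -0.81 in Cabernet Sauvignon, -0.0017 in 140 Ruggeri and -1.60 in K51-40. Peroxidases, catalases and superoxide dismutases gave 1 higher gene of 25, and 13 of the 25 stand in the study's tables.

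**Figure D3:**
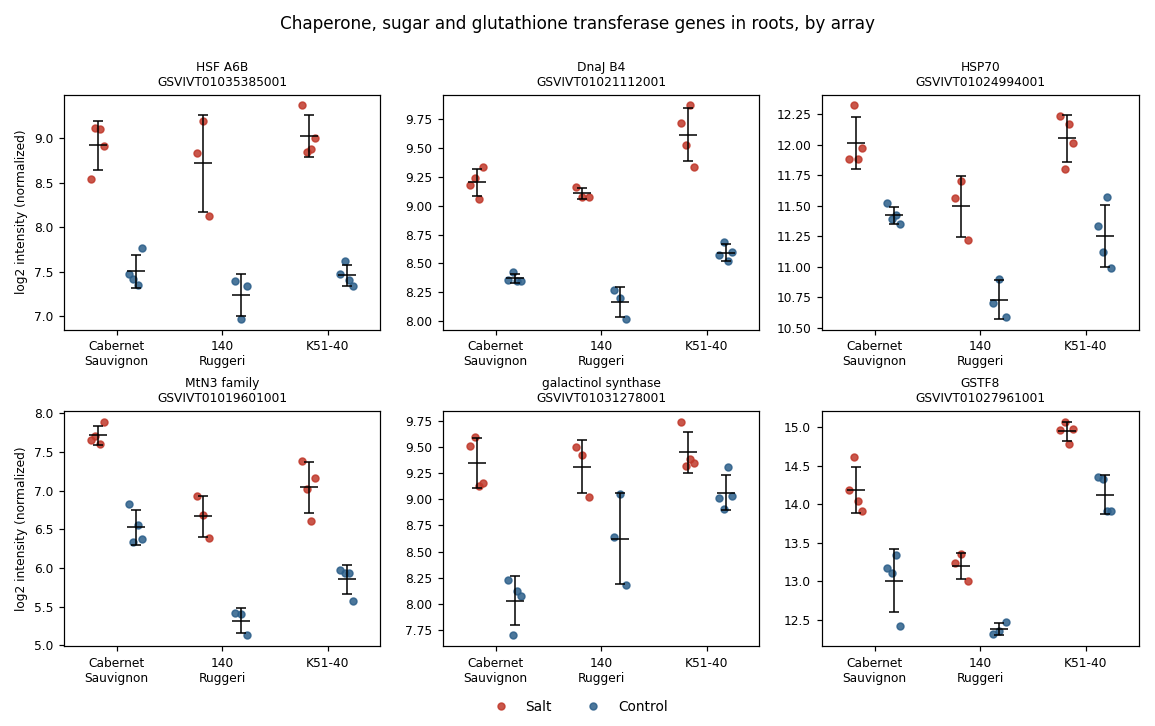
Normalised log2 intensity (vertical axis) on every array of 6 genes for chaperones, sugars and glutathione transfer, salt (red) left of control (blue) in each variety, with mean and SD bars. Salt and control points are apart in all varieties for HSF A6B, DnaJ B4, HSP70, the MtN3 gene and GSTF8, and the galactinol synthase GSVIVT01031278001 overlaps in 140 Ruggeri.

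Aquaporins, the water channels of the plasma membrane and vacuole, gave 3 higher genes of 10 and 0 lower, and all 3 were tonoplast intrinsic proteins (TIPs). Of the 10, 7 stand in the study's tables. TIP2;2 (GSVIVT01004718001) measured 9.55, 9.43, 10.21 and 9.93 under salt in Cabernet Sauvignon, against 9.13, 9.22, 9.23 and 9.11 in controls. In 140 Ruggeri it measured 11.03, 10.79 and 11.13 under salt, against 10.16, 10.31 and 10.07 in controls, and in K51-40 11.85, 11.13, 11.42 and 11.90 under salt, against 9.59, 9.47, 9.98 and 9.52 in controls. All salt arrays exceeded all controls of their variety. The common value of 1.12 ± 0.10 (adjusted p = 1.5e-06) was made up of 0.61, 0.81 and 1.94, and the differences among varieties passed the test (adjusted p = 0.018). A second TIP2;2 gene (GSVIVT01006527001, 0.93 ± 0.10) had the same order, with 1.59 in K51-40, but an adjusted p of 0.076 for the difference.

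TIP1;3 (GSVIVT01016615001) was higher by 0.80 ± 0.16 with near-equal values of 0.82, 0.69 and 0.88. NIP1;2 (GSVIVT01011407001), of the nodulin-26-like class, stood at -0.48 ± 0.14 and missed the threshold (adjusted p = 0.055). It passed with scan date as a term (-0.516, adjusted p = 0.0077) and without K51-40 (-0.688). TIP2 genes also served as markers of root tissue, and the 2 called members of the 13-gene root marker list were the TIP2;2 genes just named. Of the 13, 6 stand in the study's tables. The summed linear intensity of that list ran from 22170 to 28320 under salt and 14330 to 19740 in controls of K51-40, and overlapped between treatments in both other varieties (14920 to 17440 under salt against 13860 to 17020 in controls of Cabernet Sauvignon, and 18780 to 20800 under salt against 18080 to 19520 in controls of 140 Ruggeri).

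Of 20 cation transporters, 1 was higher and 2 were lower, and 7 of the 20 stand in the study's tables. The genes annotated HKT2 and HKT1, both matched to the single Arabidopsis HKT1, which retrieves Na+ from the xylem there, moved in opposite directions. HKT2 (GSVIVT01010937001) read 9.88, 9.86, 10.26 and 9.66 under salt in Cabernet Sauvignon, against 9.65, 9.69, 9.29 and 9.56 in controls, then 9.09, 8.94 and 8.64 under salt in 140 Ruggeri, against 8.31, 8.27 and 8.57 in controls, and 9.45, 8.74, 8.88 and 9.30 under salt in K51-40, against 8.38, 8.05, 8.52 and 8.11 in controls. HKT1 (GSVIVT01010932001) read 9.74, 9.88, 10.15 and 10.17 under salt in Cabernet Sauvignon, against 9.98, 10.16, 10.41 and 11.05 in controls, then 11.07, 10.91 and 11.20 under salt in 140 Ruggeri, against 11.18, 11.53 and 11.36 in controls, and 8.28, 9.05, 9.25 and 9.12 under salt in K51-40, against 9.76, 10.03, 10.24 and 10.31 in controls. HKT1 was therefore apart between treatments in K51-40 alone. The common values were 0.57 ± 0.10 for HKT2 (adjusted p = 0.0013) and -0.62 ± 0.13 for HKT1 (adjusted p = 0.0054), and neither passed the test for a difference between varieties (adjusted p = 0.64 and 0.34).

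CAX3 (GSVIVT01024741001), a vacuolar calcium/proton exchanger, was lower at -0.57 ± 0.11 (adjusted p = 0.0059), a call that ended without Cabernet Sauvignon control replicate 4 (-0.494). Genes annotated to the SOS pathway, which exports Na+, were not called. The kinase gene annotated as SOS2 (GSVIVT01024587001), but matched to the Arabidopsis gene AT5G58380, stood at 0.27 ± 0.06 with an adjusted p of 0.014 but below the fold threshold. The Na+/H+ antiporter SOS1 (GSVIVT01011573001) stood at 0.10 ± 0.14 (adjusted p = 0.80) and the calcium sensor SOS3 (GSVIVT01038549001) at 0.05 ± 0.09 (adjusted p = 0.84). SOS1 was not well above background on any array of 140 Ruggeri.

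The anion transporters that the array was designed to cover are the group most tied to chloride exclusion. Of 90 genes 3 were called, all higher and all in the nitrate and peptide transporter (NRT/POT) family, and the median over the list's 180 probes was -0.0052. The called share was 3.33%, against 0.907% of all genes and 5.83% of annotated genes. This list was set by the array design, and 9 of the 90 stand in the study's tables of genes that responded to salt. The POT gene GSVIVT01018395001, matched to the Arabidopsis nitrate unloader NRT1.8 (AT4G21680), was at 0.61 ± 0.16 (adjusted p = 0.036), and peptide transporter 3 (GSVIVT01027876001) was at 0.54 ± 0.14 (adjusted p = 0.030). Both were frail calls, which ended without any 1 of 10 and of 9 arrays. The third, GSVIVT01030494001, matched to the nitrate transporter gene AT3G21670 though one table calls it an endo-1,4-beta-glucanase, was at 0.62 ± 0.11 (adjusted p = 0.0013) and held without each array in turn.

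None of 13 CLC and SLAC-type channel genes was called by limma, with 5 at an unadjusted p under 0.05 and 2 at the adjusted p alone. These counts were 1224 and 499 of the 2743 annotated genes, and 6411 and 1368 of all 26241 genes. SLAH3 (GSVIVT01028789001), a nitrate and chloride channel of the SLAC family, came nearest at 0.47 ± 0.13 (adjusted p = 0.053), with 0.61, 0.48 and 0.34 in the varieties. It measured 8.0, 8.85, 8.70 and 9.0 under salt in Cabernet Sauvignon, against 7.59, 7.80, 8.29 and 8.46 in controls, then 8.30, 8.85 and 9.24 under salt in 140 Ruggeri, against 8.21, 8.38 and 8.37 in controls, and 8.20, 7.95, 8.36 and 7.94 under salt in K51-40, against 7.84, 7.62, 8.13 and 7.51 in controls. Treatments overlapped in every variety, and the gene passed both thresholds without any 1 of 4 arrays (0.512 to 0.555) and with slide as a fixed block (0.506). CLC-b (GSVIVT01033108001) stood at -0.22 ± 0.06 (adjusted p = 0.044) and the high-affinity nitrate transporter NRT2.5 (GSVIVT01013802001) at 0.29 ± 0.08 (adjusted p = 0.035), both under the fold threshold. Nitrate reductase (GSVIVT01008935001), the first enzyme of nitrate assimilation, was the single call among 6 genes of nitrogen metabolism, at -0.51 ± 0.08 (adjusted p = 0.00038), and lost the fold threshold without any 1 of 9 arrays. Of those 6 genes 1 stands in the study's tables.

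**Figure D4:**
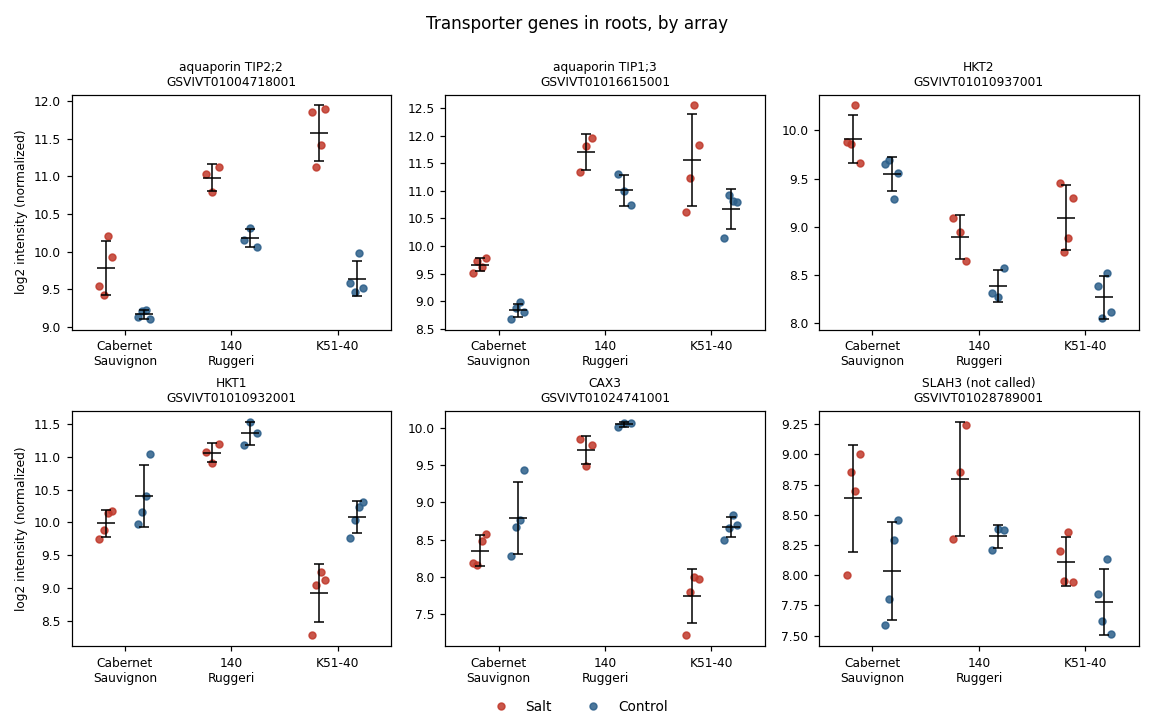
Normalised log2 intensity (vertical axis) of 6 transporter genes on every array, salt (red) left of control (blue) in each variety, with mean and SD bars. TIP2;2 is higher on all salt arrays than on the controls of the same variety, HKT2 and HKT1 move in opposite directions, and SLAH3 (0.47) overlaps between treatments in every variety.

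Of 34 genes for ABA signalling and response 7 were higher and 0 were lower, with a median of 0.11 over the list's 68 probes, and 25 of the 34 stand in the study's tables. The called members were 4 genes annotated as GRAM domain or ABA-responsive proteins, an ABA glucosidase, a type 2C protein phosphatase and a late embryogenesis abundant protein. The ABA glucosidase (GSVIVT01025344001), of a class that frees ABA from its glucose ester, was higher by 0.61 ± 0.08 (adjusted p = 0.00010) without overlap in any variety. The phosphatase GSVIVT01028698001, of the family that holds ABA signalling in check, was at 0.53 ± 0.09 (adjusted p = 0.00074), a call that ended without any 1 of 3 arrays. The GRAM gene with the smallest p (GSVIVT01034410001) was at 0.74 ± 0.13, from 0.49, 0.31 and 1.41, and the same tilt to K51-40 was seen in the other 3 GRAM genes (1.27, 1.27 and 1.23 there, against 0.13 to 0.26 in the other varieties), which were chosen after their values were seen and whose calls ended without any 1 of 3 or 4 arrays. The second probes of these 3 genes were not called, at 0.53 for GSVIVT01034396001 (adjusted p = 0.052), 0.04 for GSVIVT01034407001 (adjusted p = 0.83) and 0.32 for GSVIVT01019136001 (adjusted p = 0.25). The difference between varieties did not pass the test in any of the 4, whose adjusted p ran from 0.15 to 0.30.

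Hormone lists other than ABA gave few calls. In the auxin list 1 of 32 genes was higher, at 0.77 ± 0.10 (adjusted p = 6.7e-05) and without overlap in any variety. This gene (GSVIVT01017158001) is annotated as IAA19, an auxin-induced repressor, but matched to the Arabidopsis gene AT1G52830. Of 12 ethylene and 13 jasmonate genes 0 were called by limma, with 3 and 10 at an unadjusted p under 0.05 and 2 in each list at the adjusted p alone. Of the 2743 annotated genes 1224 had an unadjusted p under 0.05 and 499 passed the adjusted p alone. The study's tables held 13 of the auxin genes, 4 of the ethylene genes and 9 of the jasmonate genes. Among 80 WRKY, MYB, NAC, bHLH and ERF factors, 49 of them in the study's tables, 2 were higher and 3 lower. They were led by the bHLH genes GSVIVT01018094001 (0.66 ± 0.08) and GSVIVT01018460001 (-0.71 ± 0.09). Of 59 cell wall genes 3 were higher and 2 lower, and 38 of the 59 stand in the study's tables. The cellulose synthase-like CSLE1 genes GSVIVT01006761001 and GSVIVT01007041001 rose by 0.79 ± 0.12 and 0.56 ± 0.08, expansin beta 2 (GSVIVT01017505001), a wall-loosening protein, rose by 0.69 ± 0.16, and the pectate lyase GSVIVT01000592001 fell by 0.54 ± 0.09 on the log2 scale. Of 73 phenylpropanoid, flavonoid and stilbene genes 4 were higher and 1 was lower, with a list median of -0.12, and of 33 respiration and PPR genes 2 were higher. The study's tables held 48 of the 73 and 15 of the 33.

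Outside these lists and the MtN3 family, a RING-type C3HC4 zinc finger gene (GSVIVT01019972001) was higher at 1.22 ± 0.10 (adjusted p = 5.8e-07) with 1.16 in 140 Ruggeri, 1.37 in K51-40 and no overlap of treatments in any variety. By the probe with the smallest p of each gene, the largest decreases belonged to genes with no annotation here, GSVIVT01013771001 (-1.11 ± 0.22, adjusted p = 0.0044) and GSVIVT01021699001 (-1.0 ± 0.13, adjusted p = 9.4e-05). Among annotated genes an inositol polyphosphate phosphatase (GSVIVT01011597001), which trims a signalling lipid or its head group, was lowest at -0.88 ± 0.13. The carboxylesterase GSVIVT01037190001, at -0.70 ± 0.10, was also lower.

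Some decreases concerned genes annotated with functions of green tissue. Chlorophyll a oxygenase (GSVIVT01008862001), which makes chlorophyll b, was lower at -0.69 ± 0.09 (adjusted p = 0.00013) without overlap in any variety. GSVIVT01013023001, at -0.72 ± 0.08, is linked to green tissue only by its annotation as the chlororespiratory reduction protein CRR4, and is matched to the Arabidopsis gene AT1G31920. In the leaf and petiole marker list 1 of 7 genes was called, PsbB of photosystem II (GSVIVT01006503001), at -0.59 ± 0.15 (adjusted p = 0.033), a call that ended without any 1 of 10 arrays. Of the 7, 6 stand in the study's tables. The summed linear intensity of the list was 16540 to 21240 under salt and 24710 to 31550 in controls of Cabernet Sauvignon, 20470 to 25430 under salt and 24900 to 39430 in controls of 140 Ruggeri, and 22150 to 32860 under salt and 24540 to 34000 in controls of K51-40. The treatments were thus apart in Cabernet Sauvignon alone. Of the list's 14 probes 13 were well above background on all arrays of each group and 1 on none. The part of green tissue in these results was not tested, and in RNA of whole roots fewer cells of a type cannot be told apart from less RNA per cell.

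The common effect also contains genes that the varieties did not share evenly. The moderated F test for unequal salt effects passed for 226 probes of 171 genes, or 0.431% of probes and 0.652% of genes, and 38 of the 268 higher and 1 of the 102 lower common calls were among them. The largest common value of all, 1.86 ± 0.15 for a germin-like protein 3 gene (GSVIVT01031080001; adjusted p = 5.8e-07), was of this kind. Germin-like proteins are secreted enzymes of the cell wall. The gene measured 11.94, 11.80, 12.73 and 13.05 under salt in Cabernet Sauvignon, against 7.71, 7.89, 8.49 and 8.81 in controls. In 140 Ruggeri it measured 12.30, 11.77 and 12.18 under salt, against 11.47, 11.61 and 11.40 in controls, and in K51-40 8.59, 9.44, 9.27 and 9.20 under salt, against 8.22, 8.35, 8.14 and 8.41 in controls. Salt arrays were above controls in each variety, but the difference was 4.15 in Cabernet Sauvignon, 0.59 in 140 Ruggeri and 0.84 in K51-40 (adjusted p of the difference = 3.9e-05). Without Cabernet Sauvignon the mean of the other varieties was 0.718, and the second probe of the gene gave 0.61 over the 3 varieties with an adjusted p of 0.075.

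The unannotated genes GSVIVT01000102001 and GSVIVT01000101001 had almost the same profile, with 4.01 and 3.96 in Cabernet Sauvignon and 0.50 to 0.67 elsewhere. Their second probes gave 0.02 and 0.67. A further germin-like gene (GSVIVT01031079001) had 1.96, 0.73 and 0.02, and its second probe was not called (0.48, adjusted p = 0.070). Cytochrome P450 genes CYP89A6 (GSVIVT01023560001; 2.84, 0.86 and -0.37) and CYP82A2 (GSVIVT01023562001; 2.43, 0.91 and -0.24) and a class III peroxidase (GSVIVT01032715001; 1.58, 0.32 and -0.11) had positive common effects. These were 2.16-fold for CYP89A6, and 1.03 and 0.60 on the log2 scale for the others. Their K51-40 values were negative, but salt and control arrays of K51-40 overlapped for each of these genes. The adjusted p of the difference between varieties was 1.6e-05, 0.0011 and 0.0011. The second probes of CYP89A6 and the peroxidase gave 1.17 and 0.59 and were called, whereas that of CYP82A2 gave -0.0023 (adjusted p = 0.99), so its increase rested on 1 probe.

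Another set had its effect in K51-40. SVP (GSVIVT01015643001), a MADS-box factor, measured 10.20, 9.73, 10.31 and 10.28 under salt in K51-40, against 8.07, 7.53, 8.31 and 8.29 in controls, while salt and control arrays overlapped in Cabernet Sauvignon and in 140 Ruggeri. Its variety values of 0.28, 0.48 and 2.08 differed (adjusted p = 0.037), and its second probe gave 0.91 as the common value, beside 0.94. SF21 (GSVIVT01021873001; 0.13, 0.80 and 2.06), histone mRNA exonuclease 1 (GSVIVT01036640001; 0.16, 0.68 and 2.13), a C2H2 exonuclease (GSVIVT01011093001; 0.17, 0.74 and 2.03) and the unknown protein GSVIVT01026640001 (0.02, 0.77 and 2.40), the last chosen after its values were seen, looked alike. For these 4 genes the second probe gave -0.09, -0.08, 0.13 and 0.17, so the increase rested on 1 probe of each. The called probes of SF21 and histone mRNA exonuclease 1 read nearly alike on every array. Under salt in K51-40 SF21 gave 15.62, 15.21, 15.10 and 15.09, and the exonuclease 15.54, 15.12, 15.06 and 15.01. Whether these probes detect separate transcripts was not tested.

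Unequal effects also stood behind common values that were not called. The nitrate transporter NRT1.4 (GSVIVT01015522001), of the family given above, measured 7.54, 8.07, 7.44 and 7.29 under salt in Cabernet Sauvignon, against 6.48, 6.87, 6.79 and 6.84 in controls. For 140 Ruggeri the values were 6.99, 7.0 and 7.11 under salt, against 6.52, 6.86 and 7.30 in controls, and in K51-40 6.67, 7.37, 7.45 and 6.29 under salt, against 8.42, 7.76, 7.60 and 8.20 in controls. Salt arrays lay above all controls in Cabernet Sauvignon and below all controls in K51-40, and overlapped with them in 140 Ruggeri. The differences of 0.84, 0.14 and -1.05 were unequal (adjusted p = 0.022, limma) and gave a common value of -0.02 ± 0.14 (adjusted p = 0.96). A jasmonate O-methyltransferase (GSVIVT01009751001), which forms methyl jasmonate, had 0.73, 0.72 and -0.25 (adjusted p of the difference = 0.020) and a common value of 0.40 ± 0.08, under the fold threshold.

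**Figure D5:**
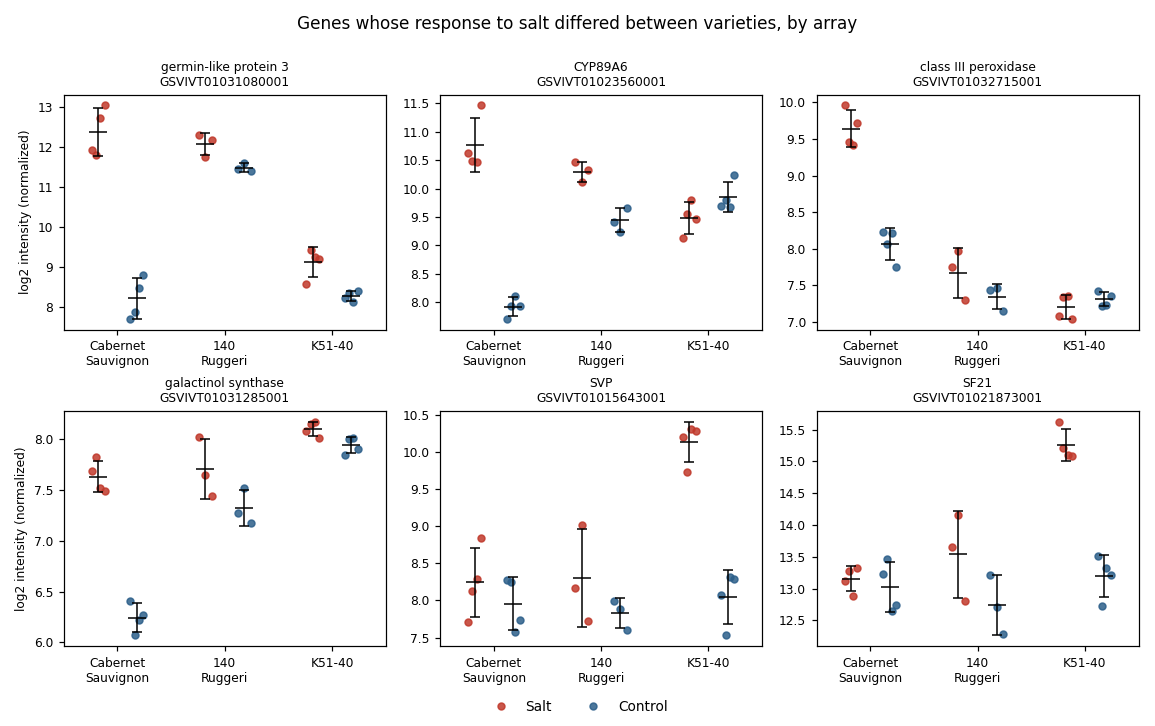
Normalised log2 intensity (vertical axis) on every array of 6 genes whose salt effect differed between varieties, salt (red) left of control (blue), with mean and SD bars. The germin-like gene, CYP89A6, the peroxidase and the galactinol synthase are furthest apart in Cabernet Sauvignon, and SVP and SF21 in K51-40.

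Across probes, which are not independent replicates, the salt differences of Cabernet Sauvignon and 140 Ruggeri had a Pearson correlation of 0.47 over all 52478 probes, against 0.11 for 140 Ruggeri with K51-40 and 0.07 for Cabernet Sauvignon with K51-40. No control array was shared between these comparisons, but slides were. Of the 4 slides, slides 2 and 3 held arrays of all varieties, slide 1 held none of K51-40 and slide 4 none of 140 Ruggeri.

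The quality of the arrays was similar in both treatments. Between 72.5% and 82.0% of spots were well above background on salt arrays and between 74.4% and 78.8% on control arrays, the median signal was 4.61 to 14.9 times background on salt arrays and 3.91 to 9.97 times on control arrays, and no spot was saturated. The second scan date held 4 salt and 3 control arrays. The scanner file of Cabernet Sauvignon control replicate 3 matched a column of K51-40 in the authors' table better than its own, whereas its column in that table correlated at 0.994 to 0.996 with the other Cabernet Sauvignon controls. The common calls were 167 higher and 61 lower genes without this array.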

How the data were processed

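RNA of whole roots was hybridised to single-colour Agilent arrays and read with Agilent Feature Extraction 10.7.3, per the study's methods. The values used are the deposited log2 table, which the authors quantile normalised and corrected with ComBat for hybridisation date. The deposited scanner files give the intensity of each spot and were used for background flags and as alternatives. Table rows were joined to probes by feature number, and repeated spots of a probe were averaged. Annotation came from the study's supplementary tables by grapevine 12x gene identifier. No fold change or p-value of the authors was used.

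A linear model with 6 group means was fitted in limma 3.58.1 (R 4.3.3). The common effect is the mean of the 3 salt minus control contrasts, with 16 residual degrees of freedom, which do not deduct those used by ComBat. P-values were adjusted by the Benjamini-Hochberg method over 52478 probes, with the thresholds given in the text. A moderated F test compared the salt effect between varieties. A gene is represented by its called probe, or the probe with the smallest p. The scripts were tested on simulated data.

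The members and gene lists were chosen with earlier results of these data known. Genes were named by rule: the 12 largest annotated increases and decreases with 1 sign in the varieties, up to 4 members of each list with the smallest p and every called member of lists with 5 or fewer, transporter and clock genes of interest to the study, 2 unannotated genes in each direction and 6 with the most unequal effects. Genes outside it were chosen after their values were seen, and most are marked so where they are described. Alternatives changed the batch terms, blocks, scaling, background correction, filters, thresholds, arrays and varieties. Promoter motifs were not analysed here.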

Additional observations from a re-analysis of the deposited data

Results flagged for a closer look

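Among the named genes 20 of 412 groups of 4 arrays, or 4.85%, held an array far from the others by Dixon's criterion, and chance flags about 1 in 20. On salt arrays of Cabernet Sauvignon these were replicate 4 for cinnamyl alcohol dehydrogenase GSVIVT01004508001 (10.39) and CYP89A6 (11.46), replicate 1 for Cycling DOF factor 1 (11.70) and replicate 3 for the late embryogenesis abundant gene GSVIVT01025171001 (8.39). On salt arrays of K51-40 they were replicate 1 for HSP101 (10.91), GSVIVT01013771001 (9.21) and galactinol synthase GSVIVT01031278001 (9.74), and replicate 3 for the POT gene GSVIVT01018395001 (8.29). On control arrays of Cabernet Sauvignon they were replicate 4 for DnaJ B9 GSVIVT01003939001 (7.81), replicate 3 for the MtN3 gene GSVIVT01008595001 (7.96), replicate 1 for GSTU25 (9.58) and replicate 2 for DnaJ B4 (8.43) and galactinol synthase GSVIVT01031274001 (7.64). DnaJ B9 lies outside the naming rule and was chosen after its values were seen. On control arrays of K51-40 they were replicate 3 for CYP81E1 GSVIVT01000187001 (12.05) and nitrite reductase GSVIVT01031737001 (12.98), replicate 2 for the B-box gene GSVIVT01010794001 (11.84), replicate 1 for TIP1;3 (10.14), and replicate 4 for the MtN3 gene GSVIVT01019601001 (5.58), GSVIVT01025171001 (7.14) and the GRAM gene GSVIVT01034407001 (7.77).

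The salt effect of 17 named genes differed between varieties by limma's moderated F test. The adjusted p was 1.58e-05 for CYP89A6, 3.58e-05 for both GSVIVT01000101001 and GSVIVT01000102001, 3.93e-05 for germin-like protein 3 GSVIVT01031080001, 0.00110 for the class III peroxidase, 0.00113 for CYP82A2, 0.00139 for galactinol synthase GSVIVT01031285001 and 0.00629 for the germin-like gene GSVIVT01031079001. It was 0.0121 for histone mRNA exonuclease 1, 0.0181 for both TIP2;2 GSVIVT01004718001 and GSVIVT01026640001, 0.0199 for the jasmonate O-methyltransferase GSVIVT01009751001 and 0.0216 for NRT1.4 GSVIVT01015522001, neither called for the common effect, 0.0301 for SF21, 0.0374 for SVP, 0.0386 for the C2H2 exonuclease and 0.0475 for galactinol synthase GSVIVT01031274001. The number of genes with unequal effects depends on single arrays and on the source of the values.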

How the results depend on the processing

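None of the 93 named common calls changed sign under any alternative run, and no called gene was called in the other direction. The signs of the other common calls were not followed in runs where they were not called. Counts are given as percent of genes tested, against 0.659% higher, 0.248% lower and 0.652% with unequal salt effects in the varieties, and 93 named genes were called. On the second scan date, where 7 arrays remain, 0.168% were higher, 0.080% lower and 0.00381% unequal and 22 named calls were kept, and on the first date 0.191% were unequal. Slide as a fixed block gave 1.04% unequal. Scanner values hold the file that matched another variety. Their median signal gave 0.0343% unequal and kept 62 named calls (87 without that file). Normexp gave 0.381% higher, 0.141% lower and 0.0534% unequal and kept 58. The processed signal gave 0.408% lower and 0.0534% unequal and kept 57, and without that file, an alternative chosen after seeing the data, 0.735% lower and 0.179% unequal. A log2 fold change of at least 1 left 0.0648% higher and 0.00762% lower, no fold threshold gave 2.89% and 2.32%, and asking all probes of a gene gave 0.362% and 0.141%. Without Cabernet Sauvignon 54 named calls were kept, and the lower share was 0.446% without 140 Ruggeri and 0.675% without K51-40. Higher genes made up 56.1% of calls with the processed signal (53.5% without that file), 55.5% with no fold threshold, 53.3% without K51-40 and 89.5% at a log2 fold change of at least 1. The test of unequal effects was not repeated without a variety. Beyond fewer arrays or stricter thresholds, the causes were not tested.

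Leaving out each array in turn gave 0.610% to 0.743% higher, 0.221% to 0.316% lower and 0.312% to 0.903% unequal and kept 81 to 92 named calls. The unequal share was 0.415%, 0.404% and 0.396% without Cabernet Sauvignon control replicates 2 and 3 and salt replicate 2, and 0.389% and 0.312% without K51-40 control replicates 2 and 4. SOS3 (GSVIVT01038549001), not called, turned to -0.0003 without Cabernet Sauvignon salt replicate 2, the lowest of a range up to 0.0977, and to -0.0278 without K51-40. SOS1 (GSVIVT01011573001), not called, turned to -0.1238 with the processed signal without the mismatched file. The common salt effect of GSVIVT01015522001 (NRT1.4), not called and near 0, ranged from -0.0855 to 0.0489 with single arrays left out and turned to 0.0552 on the first scan date, 0.0145 with the scanner median signal and 0.0049 with normexp, both without the mismatched file, and 0.4894 without K51-40.

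Replicate numbers were not treated as pairs in the main fit, although most same-numbered arrays deviated together. Their deviations correlated above 0.1 in 10 of 11 pairs, up to 0.427, and 9 salt arrays were closest to the control of their number. The exception was Cabernet Sauvignon replicate 3, at -0.352. The main fit therefore leaves out a structure that most pairs share. A replicate block gave 185 higher and 93 lower genes, and 2.32% unequal, against 173, 65 and 0.652% without it. All 93 named calls were kept with the block.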
